A study of Mus musculus with 8 samples.

Results

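Inhibitory receptors and phosphatases of myeloid cells were followed through the restoration of PU.1 in a mouse leukaemia. The set holds 7 genes, chosen by name with earlier results of these data known. They are the receptor genes Pirb, Sirpa, Cd300a and Cd300lf and the phosphatase genes Ptpn6, Inpp5d and Ptprc. All 7 were among the 12830 genes of the deposited tables and passed the filter on low counts. RNA was sequenced from AML410, an acute myeloid leukaemia of monosomal karyotype on the C57BL/6 background. All groups, the untreated one included, were p53-/- and carried shPU.1, a short hairpin RNA against the transcription factor PU.1 that was linked to green fluorescent protein (GFP). Doxycycline (Dox) given to the leukaemic mice stopped the hairpin, so that endogenous PU.1 could return. GFP+ cells were sorted from bone marrow of untreated recipients (gate GFPhigh) and of recipients treated with Dox for 2 days (GFPhigh-mid), 4 days (GFPmid) or 6 days (GFPlow), with 2 libraries in each group. The gate moved with the time on Dox, and no group had Dox without the hairpin. The effects of time, of PU.1, of Dox itself and of the GFP gate thus cannot be told apart. Replicates are technical by the titles and duplicate mice by the design text, so the p-values measure the spread between these libraries, which may be technical. A single leukaemia was studied.

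Myeloid cells carry paired activating and inhibitory receptors. The inhibitory ones hold tyrosine motifs (ITIMs) in their cytoplasmic tails, which Src family kinases phosphorylate and which then recruit the tyrosine phosphatase SHP-1, encoded by Ptpn6, or the inositol phosphatase SHIP1, encoded by Inpp5d. CD45, encoded by Ptprc, is an abundant membrane phosphatase of blood cells that sets the activity of Src family kinases by removing their inhibitory phosphate. PU.1 is a factor of the ETS family that binds purine-rich DNA and is needed for myeloid development.

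The sequence just before the transcript start is shown for 4 members, since the motif searched there is the core that PU.1 is known to bind. The windows come from RefSeq on GRCm38.p6, which matched 6 of the 7 members, Sirpa being the other one. The 250 bases upstream of the start were searched on both strands for GAGGAA, the purine-rich core, and for GGAAGTG, an ETS core that does not overlap it here. GAGGAA was found in 23.3% of all 32851 windows of this length, and GGAAGTG in 8.55%. Among the 12576 windows of genes in the deposited tables these shares were 22.8% and 11.5%. Each sequence is written 5′ to 3′ on the strand of its transcript and ends at the base before the start. Capitals mark the matches, and TTCCTC is GAGGAA read from the opposite strand.
Pirb, chr7:3720383-3720632 (minus strand): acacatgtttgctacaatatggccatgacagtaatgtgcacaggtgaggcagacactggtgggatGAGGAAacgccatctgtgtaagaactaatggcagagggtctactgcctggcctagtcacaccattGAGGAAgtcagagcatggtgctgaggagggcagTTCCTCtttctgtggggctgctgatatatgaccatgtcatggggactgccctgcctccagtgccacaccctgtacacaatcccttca
Cd300lf, chr11:115133993-115134242 (minus strand): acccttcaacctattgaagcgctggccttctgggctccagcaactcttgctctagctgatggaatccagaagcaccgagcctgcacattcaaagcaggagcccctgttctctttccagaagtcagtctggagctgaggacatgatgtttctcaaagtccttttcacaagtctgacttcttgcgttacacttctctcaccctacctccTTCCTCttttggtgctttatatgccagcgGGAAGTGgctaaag
Inpp5d, chr1:87620062-87620311 (plus strand): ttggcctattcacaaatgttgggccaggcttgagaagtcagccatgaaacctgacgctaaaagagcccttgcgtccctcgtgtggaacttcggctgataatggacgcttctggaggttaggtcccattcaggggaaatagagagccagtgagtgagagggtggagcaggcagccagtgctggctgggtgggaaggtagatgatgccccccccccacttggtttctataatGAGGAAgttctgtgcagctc
Ptpn6, chr6:124738710-124738959 (minus strand): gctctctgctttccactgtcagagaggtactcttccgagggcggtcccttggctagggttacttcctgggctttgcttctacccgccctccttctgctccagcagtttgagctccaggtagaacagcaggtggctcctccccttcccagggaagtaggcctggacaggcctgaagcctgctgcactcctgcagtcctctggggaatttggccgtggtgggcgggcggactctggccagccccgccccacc
The Pirb window held 3 matches of GAGGAA, which began 185 and 120 bases before the start on the transcript's strand and 87 bases before it on the opposite strand. The Cd300lf window held 1 match on the opposite strand, 43 bases before the start, and 1 match of GGAAGTG 14 bases before it. In Inpp5d the only match lay 20 bases before the start. Neither motif occurred in the Ptpn6 window, which borders the upstream end of the span that RefSeq gives for the gene. Whether the starts shown are those used in these cells was not tested. Cd300a had 1 match on the opposite strand, 39 bases before the start. Ptprc had 1 match in the first of its 2 windows, 158 bases before the start, and none in the second. In the GENCODE annotation, 162 of the 250 bases of that second window lie in Ptprc exons, and 1 base of the first. The Pirb window has 9 bases and the Ptpn6 window 5 bases in exons of their own genes. The windows of Cd300lf, Cd300a and Ptprc lie inside the spans that RefSeq gives for these genes, so those spans begin upstream of the transcript starts used here. A match is a description of these letters, and binding was not measured.

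Library totals ran from 9262047 to 11213292 counts. In day 2 replicate 1, 1 gene took 13.3% of all counts, against 0.957% to 1.73% for the top gene of the other 7 libraries, and day 2 values of the members are also given without that library. Expression is given as CPM, counts per 1e+06 counts of a library, scaled with TMM, a method that matches the bulk of genes between libraries. Spi1, which encodes PU.1, stood at 8.34 and 12.9 CPM in the untreated libraries, 14.8 and 15.6 at day 2, 94.0 and 103 at day 4 and 217 and 229 at day 6. A test call is an adjusted p under 0.05 in edgeR's quasi-likelihood test with Benjamini-Hochberg adjustment over 12330 genes. The day 2 change of Spi1, 0.52 on the log2 scale, was not called (edgeR adjusted p = 0.103), while DESeq2 called it (0.52, adjusted p = 0.0453). Over all genes, 516 rose and 240 fell at day 2, 3217 and 2707 at day 4, and 3942 and 3897 at day 6, each against untreated. With scaling by total counts these splits were 170 and 658, 1816 and 4519, and 2078 and 6647. The median log2 change of all genes was then -0.17, -0.27 and -0.47. Day 6 against day 4 gave 1961 rises and 1728 falls, or 881 and 2646 with total counts. All 12 myeloid markers examined, such as Mpo, Elane and Itgam, were detected in every library, with a summed level of 15866 to 28173 CPM. They moved in both directions. Against untreated, 4 were called up and 1 down at day 2, beside 4.18% and 1.95% of all genes. At day 4 it was 8 and 3, beside 26.1% and 22.0%, and at day 6 it was 7 and 4, beside 32.0% and 31.6%.

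Among markers of other cells, the summed level of those of dendritic cells was higher at days 4 and 6. The 6 of 8 dendritic cell markers that were measured, none at 0, summed to 27.9 and 28.4 CPM in untreated libraries, 53.4 and 36.4 at day 2, 161 and 157 at day 4 and 279 and 283 at day 6. Of the 5 tested, 1 was called up at day 2, 2 at day 4 and 4 at day 6, beside 4.18%, 26.1% and 32.0% of all genes. None was called down, beside 1.95%, 22.0% and 31.6%. Erythroid markers, 6 of 10 measured and none at 0, summed to 2.42 to 14.5 CPM up to day 4 and to 40.8 and 64.5 at day 6. All 10 B cell markers were measured and summed to 137 CPM in day 2 replicate 1 and to 19.5 to 76.7 CPM elsewhere, with Blk at 0 in day 2 replicate 2. Stroma and endothelium markers, 3 of 9 measured and none at 0, summed to 67.6 and 61.2 CPM in untreated libraries and to 4.39 and 5.51 at day 6. Mast cell, basophil and eosinophil markers (6 of 8 measured) summed to 23.7 to 76.9 CPM and megakaryocyte markers (4 of 7) to 36.2 to 77.6. T and NK cell markers (2 of 10) summed to 93.8 to 216 CPM. The 2 were Nkg7 and Klrb1c, which did not pass the filter on low counts. Klrb1c was at 0 in day 4 replicate 2, where Nkg7 alone made up the 122 CPM. Cd3e, Cd3d and Cd3g were not in the deposited tables. The part of other cell types in the results on the members was not tested. In bulk RNA, fewer cells of a type and less RNA per cell cannot be told apart.

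All 4 receptor genes were higher at day 4 and day 6 than in untreated cells. Pirb, Cd300a and Cd300lf began at low levels and rose 19.1-fold to 63.1-fold by day 6. Sirpa was already well expressed and rose 3.16-fold. Of the phosphatase genes, Ptprc rose 24.9-fold, Ptpn6 2.79-fold and Inpp5d 1.66-fold. Of the 7 members, 4 were called up at day 2, where 4.18% of all genes were called up, and 7 of 7 at day 4 and at day 6, where 26.1% and 32.0% were. None was called down, beside 1.95%, 22.0% and 31.6% of all genes. The median log2 change of the members was 0.72, 3.57 and 4.25 at days 2, 4 and 6, beside 0.00, -0.02 and -0.04 for all genes. Since the members were chosen with earlier results of these data known, these comparisons with all genes describe the set and do not test it. Without day 2 replicate 1, 5 members were called up at day 2, and without day 2 replicate 2 only 2 were. Leaving out day 2 replicate 1 gave log2 changes of 1.22 for Cd300a, 1.11 for Cd300lf, 1.05 for Pirb, 0.91 for Ptprc, 0.46 for Ptpn6, 0.04 for Inpp5d and 0.00 for Sirpa at day 2.

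**Figure D1:**
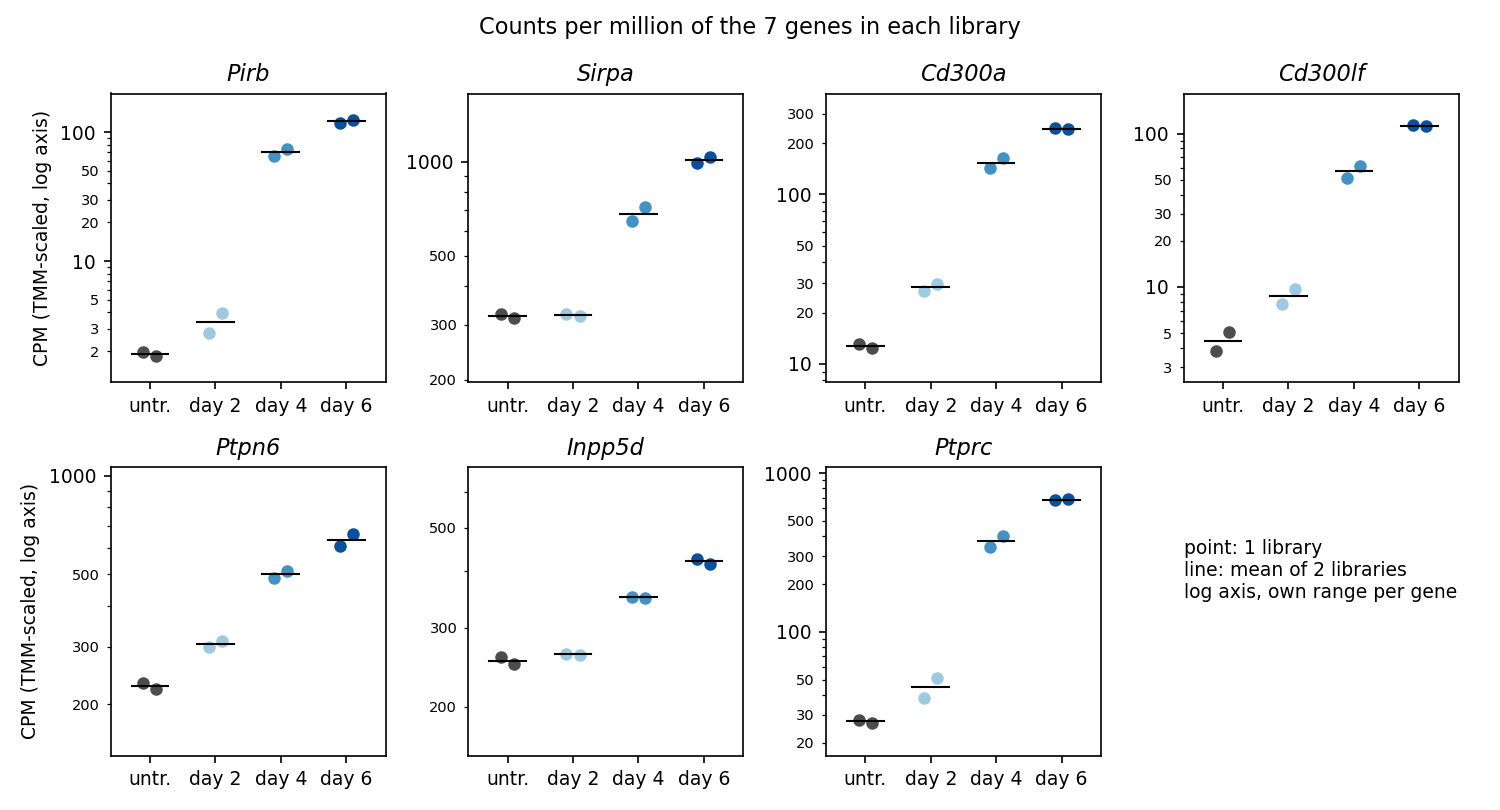
Level of each of the 7 genes in every library, in TMM-scaled CPM on a log axis with its own range per gene, by group. Points are single libraries and horizontal lines the means of 2 libraries. Pirb starts at 1.84 and 1.96 CPM and ends at 117 and 124 CPM, while Inpp5d moves from a mean of 253 to 421 CPM.

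Pirb encodes PIR-B, the mouse counterpart of the LILRB receptors, which binds MHC class I and recruits SHP-1. The gene (Entrez 18733) lies on chr7:3712505-3720382 of mm10. Its level was 1.96 and 1.84 CPM in the untreated libraries (23 and 22 counts), 2.77 and 3.95 at day 2, 65.6 and 73.7 at day 4 and 117 and 124 at day 6. Both day 4 libraries were above all earlier ones, and both day 6 libraries were above those of day 4. At day 2 the log2 change from untreated was 0.84 (SE 0.24, adjusted p = 0.0685), which was not called, although both day 2 libraries were higher. With day 2 replicate 1 left out it was 1.05 and was called, with an adjusted p of 0.0452 in edgeR. At day 4 the change reached 5.19 (SE 0.15, edgeR adjusted p = 1.22e-09). The step from day 4 to day 6 added 0.79 (SE 0.09, adjusted p = 0.00015 in edgeR).

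Pirb values carry an uncertainty of counting, since it belongs to a family of near copies. Of its distinct stretches of 50 bases, 34.0% also occur in transcripts of other genes, with 17.7% in Gm14548 and 16.8% in Pira2. How the submitters counted reads that fit several genes is not given in the sources used here. The activating relatives were almost silent at first and then counted in every library. Pira1 had 1 and 1 counts in untreated libraries, 1 and 0 at day 2, 37 and 60 at day 4 and 98 and 114 at day 6. Pira2 had 1 and 0, then 1 and 1, then 86 and 75 counts, and stood at 17.8 and 17.8 CPM at day 6. Lilra6 went from 3 and 5 counts over 2 and 6 and then 100 and 102 to 179 and 216. Pirb had 1041 and 1150 counts at day 6, more than each of these 3 relatives. The part of shared reads in its count was not tested.

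Cd300a encodes an inhibitory receptor for phospholipids exposed on dying cells. The gene (Entrez 217303) lies on chr11:114889152-114901946. It stood at 13.2 and 12.5 CPM in untreated libraries, 27.0 and 29.8 at day 2, 142 and 163.3 at day 4 and 246 and 244 at day 6. The groups did not overlap at any step, and the day 2 level was 2.22-fold that of untreated cells. That early change was 1.148 on the log2 scale (SE 0.11, edgeR adjusted p = 0.000305), the largest of the 7 members at day 2. The change from untreated grew to 3.57 (SE 0.10) by day 4 and to 4.25 (SE 0.10, edgeR adjusted p = 1.83e-10) by day 6.

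Cd300lf encodes a related receptor that also binds lipids and carries inhibitory motifs. The gene (Entrez 246746) lies near Cd300a, on chr11:115116214-115135372. It was read at 3.83 and 5.11 CPM in untreated libraries (45 and 61 counts), 7.73 and 9.69 at day 2, 51.7 and 61.8 at day 4 and 114 and 111 at day 6. Each group was above the one before it in both libraries. The day 2 change was 0.97 (SE 0.20, edgeR adjusted p = 0.0165). That call was lost without untreated replicate 1 and without day 2 replicate 2, where the change was 0.79 in each case with adjusted p of 0.057 and 0.121 in edgeR. At day 6 the change was 4.65 (SE 0.15, edgeR adjusted p = 8.84e-10). Of the 50-base stretches, 3.45% of those of Cd300a and 2.44% of those of Cd300lf were found in other genes, against 34.0% for Pirb.

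Sirpa encodes the receptor for CD47, the signal by which cells keep macrophages from engulfing them. The gene (Entrez 19261) lies on chr2:129591042-129632228. Its libraries held 324 and 314 CPM untreated, 325 and 319 at day 2, 645 and 715 at day 4 and 986 and 1033 at day 6. The untreated and day 2 libraries overlapped, and every later library was above them. The day 2 change was 0.01 on the log2 scale with a 95% interval of -0.16 to 0.19 (edgeR adjusted p = 0.949). From untreated it then rose by 1.09 (SE 0.08) to day 4 and by 1.66 (SE 0.08, edgeR adjusted p = 1.25e-08) to day 6. No 50-base stretch of Sirpa occurred in another gene.

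Ptpn6 encodes SHP-1, the tyrosine phosphatase that binds the tails of these receptors. The gene (Entrez 15170) lies on chr6:124720707-124738709. Ptpn6 was measured at 233 and 223 CPM untreated, 299 and 312 at day 2, 487 and 511 at day 4 and 609 and 664 at day 6. It was above the preceding group at each step. The day 2 change was 0.42 (SE 0.08, edgeR adjusted p = 0.00855), and was 0.25 with an adjusted p of 0.262 in edgeR when libraries were scaled by total counts. At day 6 it reached 1.48 (SE 0.08, edgeR adjusted p = 2.04e-08). The antisense gene Gm20531 covers 195 of the 2802 exon bases of Ptpn6, or 6.96%, and without a stated strand setting the reads there cannot be told apart.

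Inpp5d encodes SHIP1, which removes a phosphate from the membrane lipid made by PI3-kinase. The gene (Entrez 16331) lies on chr1:87620312-87720510. The level was 258 and 249 CPM untreated, 262 and 261 at day 2, 352 and 348 at day 4 and 427 and 416 at day 6. At days 4 and 6 it moved least of the 7 members. Its day 2 change was 0.05 with a 95% interval of -0.10 to 0.19 (edgeR adjusted p = 0.747). The day 4 change was 0.47 (SE 0.07, adjusted p = 0.000143), but 0.22 with an adjusted p of 0.171 in edgeR under scaling by total counts. At day 6 it was 0.73 (SE 0.07, edgeR adjusted p = 2.08e-06), and 0.30 with total counts, where it remained called at an adjusted p of 0.0436 in edgeR.

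Ptprc encodes CD45, which acts on Src family kinases rather than on the receptors' motifs. The gene (Entrez 19264) lies on chr1:138062859-138175756. Its level was 28.01 and 26.6 CPM untreated, 38.3 and 51.3 at day 2, 344 and 402 at day 4 and 680.0 and 682 at day 6. No library overlapped with those of another group, and the day 2 pair differed more between themselves than the untreated pair. The day 2 change was 0.72 (SE 0.13, edgeR adjusted p = 0.0106). It missed the threshold without untreated replicate 2 (0.69, adjusted p = 0.072) and without day 2 replicate 2 (0.49, adjusted p = 0.0719 in edgeR). Day 4 brought a change of 3.77 (SE 0.13) from untreated, and day 6 brought 4.64 (SE 0.13, edgeR adjusted p = 4.71e-10).

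**Figure D2:**
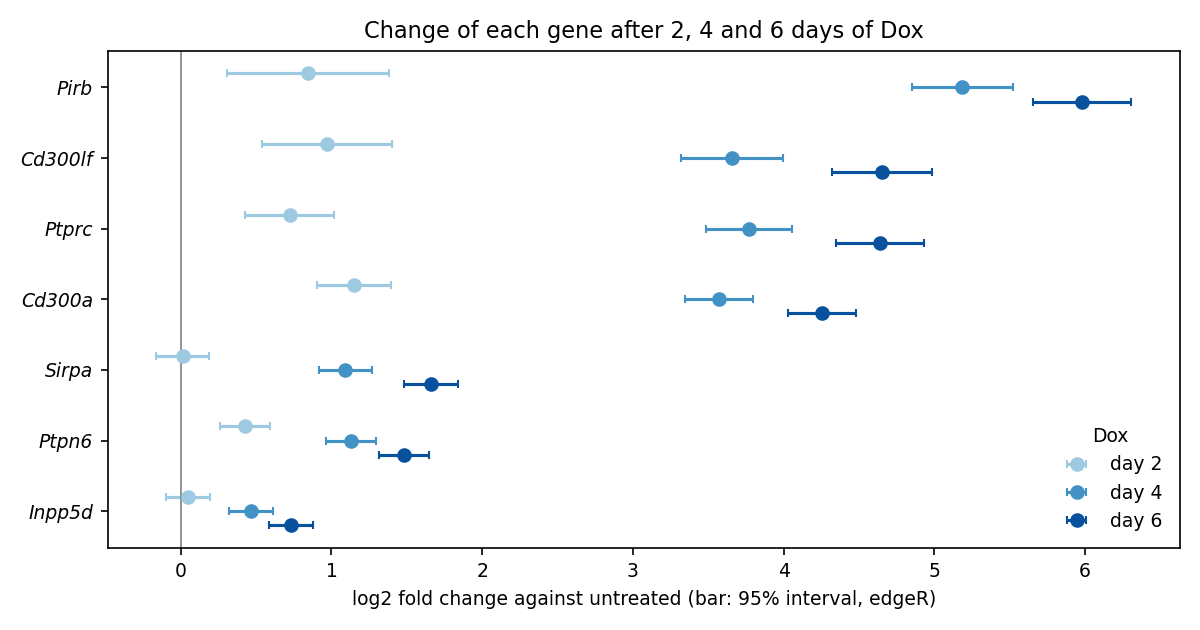
Log2 fold change of each of the 7 genes from untreated after 2, 4 and 6 days of Dox, with bars for the 95% interval from edgeR. At day 2 the intervals of Sirpa and Inpp5d span 0, and at day 4 Pirb, Ptprc, Cd300lf and Cd300a lie between 3.57 and 5.19.

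The members differed in when they moved. Between untreated and day 2, 6 of the 7 were higher in both libraries, and the same 6 then rose without overlap at each later step, a pattern met by 7.65% of all genes. Sirpa was the exception, through its overlap at day 2. With scaling by total counts Inpp5d left this pattern as well, with a day 2 change of -0.14. From day 2 to day 4, 7 of 7 members were called up, beside 21.7% of all genes, with log2 changes from 0.42 for Inpp5d to 4.34 for Pirb. From day 4 to day 6, 7 of 7 were called up, beside 15.9% of all genes, with changes from 0.27 for Inpp5d to 0.99 for Cd300lf. With scaling by total counts the last step was called for 5 of 7, since Ptpn6 (0.17, adjusted p = 0.368 in edgeR) and Inpp5d (0.08, adjusted p = 0.662 in edgeR) were lost. Over all genes that setting gave 881 rises and 2646 falls at this step.

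Whether the middle step was larger than the others was tested as a difference of steps, a contrast added after the values were seen. The step from day 2 to day 4 exceeded the step from untreated to day 2 for 5 of 7 members, where 8.88% of all genes were called in that direction. The excess was 3.50 for Pirb (adjusted p = 0.000211), 2.33 for Ptprc (adjusted p = 0.000143) and 1.07 for Sirpa (adjusted p = 0.000632) in edgeR. Cd300lf and Cd300a followed with 1.71 and 1.28. For Ptpn6 the excess was 0.28 with a 95% interval of -0.01 to 0.57 (edgeR adjusted p = 0.189), and for Inpp5d it was 0.38 (edgeR adjusted p = 0.0527). The Inpp5d excess was called without untreated replicate 1 (adjusted p = 0.0467 in edgeR) or without untreated replicate 2 (edgeR adjusted p = 0.0297). Against the step from day 4 to day 6, the same 5 genes were called, beside 8.38% of all genes, with excesses from 0.51 for Sirpa (edgeR adjusted p = 0.0320) to 3.55 for Pirb. Sirpa lost this last call in 6 of the 8 fits that left out 1 library, with a total count scaling and with a replicate block. In value, the step from day 2 to day 4 was the largest of the 3 fitted steps for all 7 members.

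Levels of different genes were set side by side per length, as RPKM, the CPM divided by the deposited gene length in kilobases. In untreated cells Ptpn6 was at 94.6 ± 2.98 RPKM (SD, n = 2), Sirpa at 75.5 ± 1.71 and Inpp5d at 51.3 ± 1.27. Far below them were Ptprc at 4.82 ± 0.179, Cd300a at 2.77 ± 0.107, Cd300lf at 2.37 ± 0.481 and Pirb at 0.697 ± 0.0295. The order thus set Ptpn6, Inpp5d and Sirpa apart from the other 4 genes, and among neighbours in this order only Cd300a and Cd300lf overlapped between libraries. The order of the means was the same at days 2 and 4, where at day 4 Inpp5d (70.9 ± 0.488) overlapped with Ptprc (65.9 ± 7.17) and Cd300a (32.9 ± 3.17) with Cd300lf (30.1 ± 3.82). By day 6 Ptprc, at 120 ± 0.292, had passed Inpp5d, at 85.4 ± 1.61. Cd300lf, at 59.8 ± 1.04, had passed Cd300a, at 52.8 ± 0.425. Ptpn6 at 264 ± 16.3 and Sirpa at 239 ± 7.83 remained first and second, and Pirb at 44.3 ± 1.83 remained last. The place of Pirb is uncertain, since 34.0% of its 50-base stretches occur in other genes, against 3.45% for Cd300a and 2.44% for Cd300lf. If shared reads were left uncounted, its level per length would be too low, which was not tested. Scaling by total counts would multiply a level per length by 0.860 to 1.16, by the same factor for all genes of a library.

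**Figure D3:**
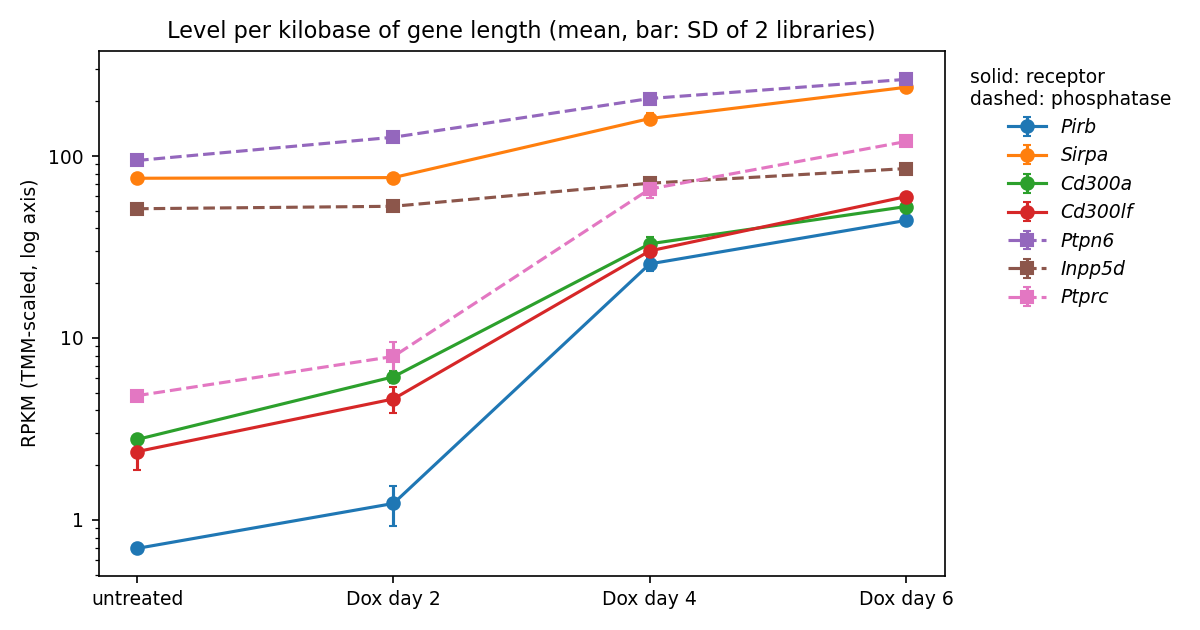
Level per length of each gene by group, in TMM-scaled RPKM on a log axis, as the mean with bars for the SD of 2 libraries. Solid lines are receptors and dashed lines phosphatases. The untreated span from Pirb at 0.697 to Ptpn6 at 94.6 is wider than the day 6 span from 44.3 to 264. The level of Pirb carries the uncertainty of reads shared with related genes.

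Each of Ptpn6, Inpp5d and Sirpa was set against a partner or relative within the same library, where scaling cancels. Ptpn11 encodes SHP-2, a widely expressed relative of SHP-1. The ratio of Ptpn6 to Ptpn11 per length was 2.62 and 2.51 untreated, 3.34 and 3.37 at day 2, 5.25 and 5.16 at day 4 and 6.11 and 6.59 at day 6. Inppl1 encodes SHIP2, the broadly expressed relative of SHIP1. The ratio of Inpp5d to Inppl1 was 2.61 and 2.19, then 2.93 and 2.96, then 3.62 and 3.70, and 5.14 and 5.03 at day 6. The ratio of Sirpa to its ligand gene Cd47 was 0.336 and 0.360, then 0.374 and 0.402, then 0.887 and 0.911, and 1.33 and 1.39 at day 6. All 3 ratios were higher at every step, without overlap between libraries. The ratios were not tested. Within them, Cd47 fell from 417 to 337 CPM (log2 change -0.31, SE 0.08, edgeR adjusted p = 0.00605) and Inppl1 from 109.7 to 85.5 CPM (-0.36, adjusted p = 0.00254 in edgeR). Ptpn11 went from 207 to 233 CPM (0.17, edgeR adjusted p = 0.0437), a call that was lost with DESeq2, with total counts (-0.26) and in 7 of the 8 fits without 1 library.

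**Figure D4:**
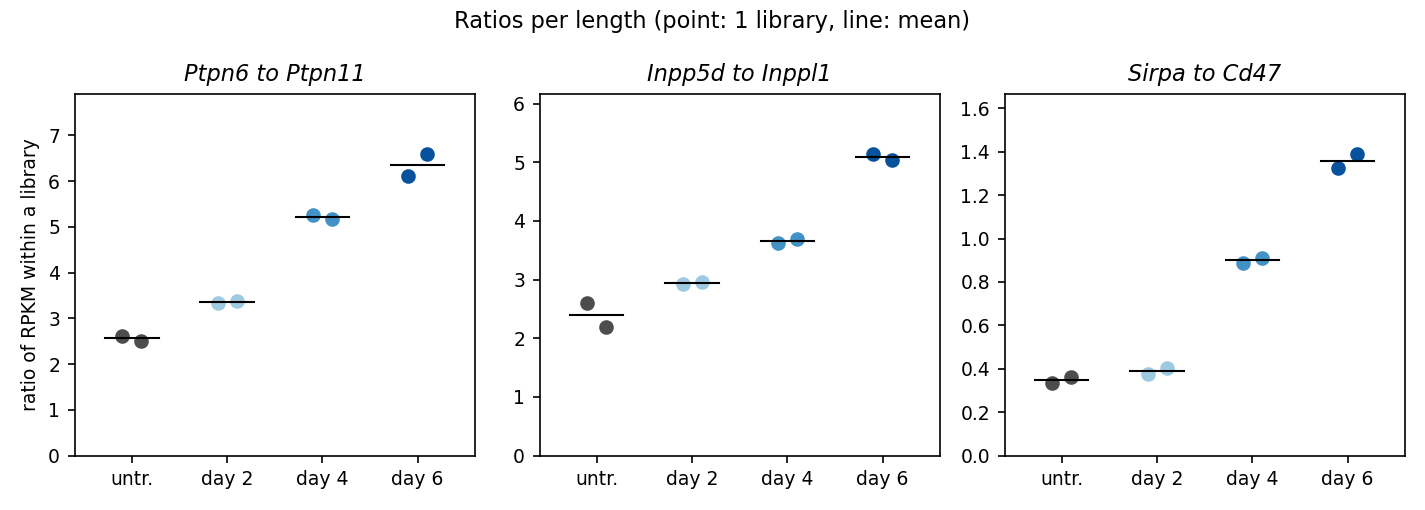
Ratio of levels per length within each library for Ptpn6 to Ptpn11, Inpp5d to Inppl1 and Sirpa to Cd47, by group. Points are libraries and lines the means of 2. Sirpa moves from 0.336 and 0.360 of the Cd47 level to 1.33 and 1.39 at day 6.

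Other inhibitory receptors were taken from a list of 35, of which 31 were tested. No motif was searched in their proteins, so some entries of the list may not be inhibitory. At day 2, 10 rose and none fell, where 4.18% of all genes rose. The rises were 6 without untreated replicate 2, without either day 2 library or without either day 6 library, and 5 with total counts. At day 6, 26 rose and 1 fell, with a median log2 change of 2.62, beside 32.0% and 31.6% of all genes. The same shares of all genes stand beside the day 6 counts of the lists that follow. With total counts, 170 of all 12330 genes rose at day 2, and 2078 rose and 6647 fell at day 6. Clec4a2, a C-type lectin with an inhibitory motif, rose from 3.38 ± 0.800 to 418 ± 9.39 CPM (log2 change 6.94, SE 0.14, edgeR adjusted p = 6.19e-11), and by 1.44 at day 2. Siglece, a sialic acid receptor, rose from 0.296 to 35.4 CPM (6.85) and Lilrb4a from 0.548 to 40.4 CPM (6.17). Clec12a, another inhibitory lectin, led the list at day 2 with a change of 1.85, from 23.5 to 84.6 CPM. Clec2d, a C-type lectin-like surface protein, was the gene that fell, from 75.4 ± 31.3 to 31.7 ± 2.09 CPM (-1.25, edgeR adjusted p = 0.000478).

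Activating receptors and their adaptors also rose. Of 34 listed, 23 were tested. At day 2, 5 of these rose and none fell, beside 4.18% and 1.95% of all genes. At day 6, 21 rose and 2 fell, with a median log2 change of 3.85. The 5 rises of day 2 were 2 without untreated replicate 2, day 2 replicate 2 or either day 6 library and with a replicate block, and 3 with total counts. Sirpb1b and Sirpb1c, activating relatives of Sirpa, rose from 0.212 to 24.4 CPM (6.77) and from 0.253 to 26.1 CPM (6.62). Pilrb1 rose from 2.16 to 67.4 CPM (4.96). Tyrobp, which encodes the activating adaptor DAP12, rose by 0.97 at day 2 (171.7 to 336 CPM, edgeR adjusted p = 0.000349) and Trem3 by 0.87. Syk, the kinase that follows activating motifs, rose from 205 to 539 CPM at day 6 (1.39), and Fcer1g, another adaptor, from 243 to 496 CPM (1.03). Hcst, which encodes the adaptor DAP10, fell from 30.5 to 23.6 CPM (-0.37, edgeR adjusted p = 0.00871), a call lost with DESeq2 and without day 6 replicate 2. The other fall was in the Cd300 family. Cd300c went from 1.65 to 0.381 CPM (-2.06, edgeR adjusted p = 0.0108), a call lost with DESeq2 and without day 6 replicate 1, while Cd300ld rose from 1.06 to 30.0 CPM, Cd300lg from 4.74 to 71.4 CPM and Cd300lb from 149 to 297 CPM. Lilrb4a, the Sirpb1 genes, Pilrb1 and these Cd300 genes belong to families of related genes, and the stretches they share with their relatives were not measured. Cd300c, the Cd300 relatives, Syk and Fcer1g were named after their values were seen.

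Kinases that act on the motif, with their regulators, moved in both directions. Of 10 tested, 6 rose and 2 fell at day 6, with a median change of 1.05. Fgr, a Src family kinase of mature myeloid cells, rose from 2.67 to 106 CPM (5.31, SE 0.20, edgeR adjusted p = 1.93e-09). Fes rose from 102 to 489.6 CPM (2.26) and already by 0.61 at day 2, a call lost with total counts (0.43, edgeR adjusted p = 0.0502). Lyn, the family member that phosphorylates PIR-B and named after its value was seen, rose from 159 to 569 CPM (1.84). Csk, which places the inhibitory phosphate that CD45 removes, rose from 126 to 188 CPM (0.58; not called with total counts, at 0.15), and Pag1, an adaptor that brings Csk to the membrane, from 99.3 to 284 CPM (1.52). Fyn fell from 6.59 to 3.25 CPM (-1.02). Csk, Pag1 and Fyn were named after their values were seen. Yes1 went from 19.2 to 14.8 CPM (-0.37, edgeR adjusted p = 0.0237), a call lost with DESeq2 and without untreated replicate 2 or day 6 replicate 2. Of the ligands of the receptors, 5 were tested and 3 rose and 1 fell at day 6, or 1 and 2 with total counts. Rtn4, the gene of Nogo, rose from 75.9 to 178 CPM (1.23). B2m, the light chain of MHC class I, changed by 0.62 and H2-D1 by 0.40, and both calls were lost with total counts (0.19 and -0.03). Cd47 was the ligand that fell.

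Other protein tyrosine phosphatases held as many rises as falls. Of 27 tested, 10 rose and 10 fell at day 6, with a median log2 change of -0.17, shares near those of all genes. With total counts 8 rose and 15 fell, where 2078 rose and 6647 fell of all 12330 genes. Ptpro, a receptor phosphatase, rose from 0.970 to 55.2 CPM (5.81, edgeR adjusted p = 8.84e-10) and Ptprj, which encodes CD148, from 68.4 to 279 CPM (2.03). Ptpn9 rose from 7.39 to 25.9 CPM (1.81). Ptpru fell from 50.1 to 13.1 CPM (-1.93) and Ptprs from 243 to 97.7 CPM (-1.32). At day 2 Ptpn9 rose by 0.52, a call lost in every fit without 1 library, and Ptprs fell by 0.45, a call lost without untreated replicate 2 or day 2 replicate 1. The other fall at day 2 was that of Ptpn12, by 0.30, named after its value was seen, a call lost with a replicate block and in 6 of the 8 fits without 1 library.

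Among other phosphoinositide phosphatases, 27 were tested and 15 rose and 4 fell at day 6, but 10 rose and 11 fell with total counts. Inpp5f rose from 21.8 to 89.5 CPM (2.04), Fig4 from 25.6 to 87.5 CPM (1.77, and 0.95 at day 2) and Synj1 from 54.4 to 153 CPM (1.49). Ocrl fell from 47.4 to 27.5 CPM (-0.79) and Pip4p2 from 56.3 to 35.2 CPM (-0.68). At day 2, Pip4p1 rose by 0.41, a call lost with total counts and in 4 of the 8 fits without 1 library. Besides Inppl1, the remaining fall was that of Inpp5a, from 39.0 to 27.3 CPM (-0.51), named after its value was seen.

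Of the adaptors around SHIP1, SHP-1 and SIRPA, 22 were tested, and 15 rose and 1 fell at day 6, or 9 and 3 with total counts. Sh2d1b1, which encodes the adaptor EAT-2, rose from 0.170 to 40.3 CPM (7.80) and Fyb from 0.550 to 44.1 CPM (6.30). Dok3, an adaptor that binds SHIP1, rose from 54.9 to 188 CPM (1.78) and by 0.66 at day 2. Skap2, which lies in the SIRPA pathway and was named after its value was seen, rose from 79.0 to 254 CPM (1.68). At day 2, Gab1 fell by 0.73 (edgeR adjusted p = 0.0394), a call lost with DESeq2, with a replicate block and in 7 of the 8 fits without 1 library. Lat, an adaptor best known from T cells and named after its value was seen, was the gene that fell at day 6, from 2.24 to 0.547 CPM (edgeR adjusted p = 0.0038).

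PU.1 and its partners, 10 genes tested, held 3 rises and 5 falls at day 6, or 1 rise and 5 falls with total counts. Spi1 rose by 4.39 (SE 0.14, edgeR adjusted p = 8.84e-10), a change between those of Cd300a and Ptprc. Cebpe rose by 0.66 and Cebpb by 0.50, both lost with total counts. Myb, a factor of progenitors, fell from 546 to 126 CPM (-2.12), and Irf8 fell by 1.24. At day 2, Cebpa fell by 0.43, a call lost without day 2 replicate 2. The other falls at day 6, named after their values were seen, were Cebpa (-1.05), Gfi1 (-0.95) and Runx1 (-0.69).

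**Figure D5:**
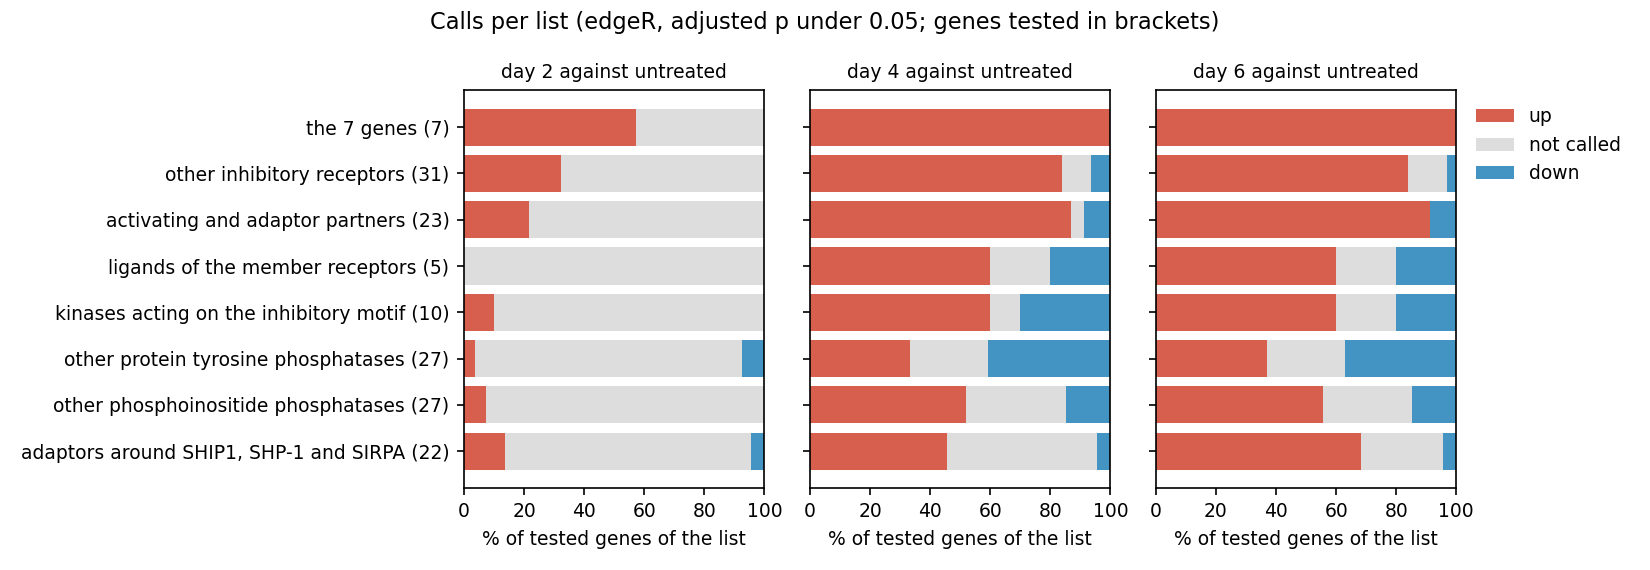
Share of the tested genes of each list, in percent, that edgeR called up (red), called down (blue) or did not call (grey) at days 2, 4 and 6 against untreated. The number tested is in brackets. All 7 genes of the set are up at days 4 and 6, and at day 6 other protein tyrosine phosphatases hold 10 up and 10 down of 27.

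The genes most like each member in pattern were found by Pearson's r of log2 CPM over the 8 libraries, among 9156 genes, as a description. Libraries of a group share their treatment, so high values are common. Otub1 (0.9995) and Lsp1 (0.9993) were closest to Pirb, and Dock2 (0.9996) was close to Cd300a. Ccr1 (0.9990) and Map3k15 (0.9988) were closest to Cd300lf, and Stk10 (0.9990) and Rassf3 (0.9988) to Sirpa. Rab32 (0.9979) and Rgs19 (0.9978) were nearest to Ptpn6, Atp6ap1 (0.9989) and Dhrs1 (0.9985) to Inpp5d, and Evi2a (0.9999) and Prex1 (0.9994) to Ptprc. Likeness of pattern did not mean likeness of size. Otub1 rose by 0.68 at day 6 and Lsp1 by 4.50, beside 5.98 for Pirb. Between members, r ran from 0.963 for Sirpa with Cd300a to 0.998 for Pirb with Ptprc.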

How the data were processed

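Per the file headers, the deposited tables list each Entrez gene with its raw read count, a whole number, and its length. The tools in the submitters' processing notes are featureCounts, CASAVA 1.8.2, limma 3.22.0 and edgeR 3.8.2, with mm10 as the build. The aligner, the strand setting and the handling of reads that fit several genes were not given in the sources used here. Gene length, the other deposited column, was used for levels per length.

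All 8 libraries entered 1 fit with a mean per group in edgeR 4.0.16 under R 4.3.3, with TMM scaling, filterByExpr (500 genes removed) and the quasi-likelihood test. Benjamini-Hochberg adjustment ran over 12330 genes with a threshold of 0.05. RefSeq on GRCm38.p6 gave symbols for 12555 of 12830 genes. Variation between libraries, as edgeR's biological coefficient, came to 8.34% on 4 residual and 7.08 prior degrees of freedom. Values are mean ± SD of n = 2 libraries. The script was tested on simulated data. Promoter windows are from RefSeq, and shared stretches of 50 bases and exon overlaps from GENCODE transcripts of GRCm38. A planned search for motifs in the proteins was not run.

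The members and lists were chosen with earlier results of these data known. Named list genes are the called genes with the 3 largest rises and 2 largest falls at day 6 and the 2 largest changes at day 2, at an average log2 CPM of at least 3. A few genes that these rules select are not reported here. Likeness used log2 CPM with a prior count of 2. Alternatives were RLE size factors, total counts, no filter, DESeq2 1.42.0, a replicate block and leaving out each library. The difference of steps was added after the data were seen.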

Additional observations from a re-analysis of the deposited data

How the results depend on the processing

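The rises of all 7 members at day 6 kept their direction and their call under each alternative run. At day 2 the count of members called up was 4, and it ran from 2 (without day 2 replicate 2) to 5 (without day 2 replicate 1) when 1 library was left out, and was 3 with total counts. With total counts 6 members were called up at day 4 and 5 from day 4 to day 6, where 1816 and 881 of all 12330 genes were called up. From day 4 to day 6 it was 5 to 7 when 1 library was left out, the losses being Ptpn6 or Inpp5d. The direction turned for changes near 0 that were not called: with total counts Sirpa was at -0.17 and Inpp5d at -0.14 at day 2, and without untreated replicate 2 Sirpa was at -0.011 at day 2 (0.039 without untreated replicate 1, the other end of the range). Over all genes, leaving out 1 library gave 325 to 1325 calls at day 2 (756 with all libraries), 1726 to 4193 from day 4 to day 6 (3689), 835 to 2016 for the second minus the first step (1755) and 732 to 1690 for the second minus the third step (1421). Day 2 calls numbered 325 without untreated replicate 2 and 1325 without untreated replicate 1, 397 without day 2 replicate 2, and 402 and 405 without day 6 replicate 1 or 2. Where a group is left with 1 library, that library is assumed to vary like those of the other groups. The correlation of deviations of same-numbered libraries ran from -0.130 to 0.209, which cannot show whether the replicate numbers pair the libraries. With a replicate block, 612 genes were called at day 2 against 756, the members called stayed at 4, 7 and 7, and the second minus the third step lost Sirpa (adjusted p = 0.0514 in edgeR). With RLE size factors the median log2 change of all genes was at most 0.03 in size. Depth limits Pirb and Cd300lf most, with 22 to 61 counts in untreated libraries.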
